A study of Mus musculus with 94 samples.

Results

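The genes described are 10 regulators and products of fat cell formation other than *Pparg*: *Cebpa*, *Cebpb*, *Cebpd*, *Ebf1*, *Ebf2*, *Zfp423*, *Nfia*, *Prdm16*, *Pnpla2* and *Adipoq*. They were chosen by name, with earlier results of these data known, and all 10 had a row among the 16069 genes of the table. They were examined in PV-ADSCs, cells of periaortic fat (thoracic part) that were isolated from mice 8 weeks old (strain c57/bl per the labels, C57BL/6J in the methods of the study) and not cultured. The sort took live nucleated cells that lacked CD144 and CD45 and carried CD29 and Sca1. Each cell gave 1 library of full-length cDNA. GEO lists 94 such libraries under 1 condition, of which 85 are in the table and the other 9 were not analysed here. No cell is tied to an animal in the labels, so the cells count as 1 sample, and no test or p-value between cells is given.

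Fat cells form from fibroblast-like stromal progenitors in a known order of transcription factors. The C/EBP proteins β and δ act early, and they switch on C/EBPα and PPARγ, which in turn maintain the genes of the mature adipocyte. Factors of the EBF and NFI families and the zinc finger proteins ZFP423 and PRDM16 prepare progenitors for this program or steer it to white or brown fat. *Pnpla2*, which encodes the lipase ATGL, and *Adipoq*, which encodes the hormone adiponectin, are products of mature fat cells. Perivascular fat of the thoracic aorta in mice resembles brown fat.

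Cells were grouped by *Dcn*, the gene of the matrix proteoglycan decorin. With a deposited *Dcn* value of at least 1000, 58 cells were stromal, and the remaining 27 are called other cells. Just inside this limit lay cell 50, with a deposited value of 6521, and just outside it lay cell 20, with 269. Of the 12 further stromal markers, 6 or more reached 100 reads in 55 of the stromal cells and in 0 of the other cells. In contrast, 3 or more of 15 endothelial markers reached 100 reads in 24 of the 27 other cells and in 1 stromal cell, cell 34, although CD144 had been sorted against. Reads are whole numbers recovered from the deposited normalized values. Their total per cell ranged from 1146951 to 4776510, with a median of 2963854 in stromal and 2714449 in other cells. The number of genes above 0 differed more, with a median of 2813 in stromal and 1416 in other cells. It stands beside every comparison of the groups below, and its part in them was not tested. Cell 50 had only 69 reads of *Dcn* and 850 genes above 0, and is stromal only because its *Dcn* reads were multiplied by 94.5 in the table.

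The regulators split into a widespread and a rare set. *Cebpb*, *Cebpd*, *Ebf1*, *Ebf2* and *Nfia* were each found in 34 to 48 of the 58 stromal cells, whereas *Cebpa*, *Zfp423*, *Prdm16*, *Pnpla2* and *Adipoq* were found in 1 to 6 of them. A stromal cell held a median of 4 of the 10 genes (lowest 2, highest 6), and an other cell a median of 2 (lowest 0, highest 3). Of the 10 genes, 8 were found in a larger share of stromal than of other cells. The exceptions were *Cebpb* and *Pnpla2*. Among the 8 genes found in at least 3 cells, 7 had the larger share in stromal cells, a direction that held for 85.1% of all 11478 genes measured in at least 3 cells.

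**Figure D1:**
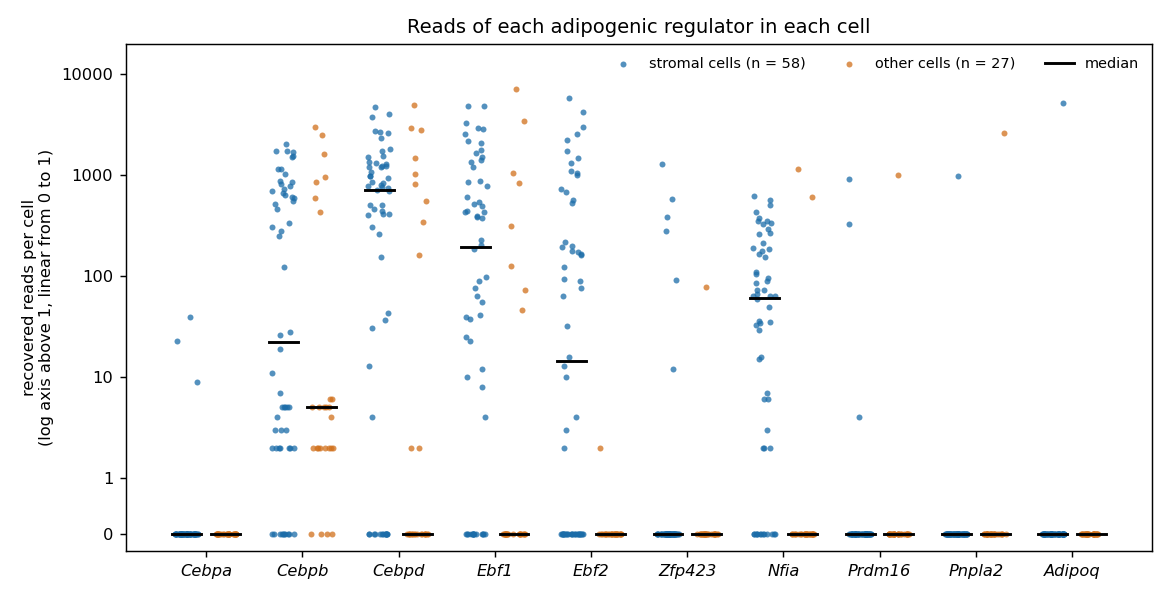
Recovered reads of each of the 10 genes in each cell (vertical axis, log scale above 1 read), with 1 point per cell in 58 stromal (blue) and 27 other cells (orange) and a bar at the median. The median is above 0 in stromal cells for 5 genes and in other cells for *Cebpb* only, where it is 5 reads.

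At any read *Cebpb* was the most widespread member, and the only one for which most other cells also held reads. At 10 reads or more this rank was lost. *Cebpd* (44 stromal cells), *Ebf1* (42) and *Nfia* (38) were then found in more stromal cells than *Cebpb* (31), and *Ebf2* (31) in as many. Of the 27 other cells, 7 held *Cebpb* at that level. In stromal cells *Cebpb* ranged from 0 to 2041 reads with a median of 22.5. In other cells it ranged from 0 to 2983 reads with a median of 5. It was above 0 in 48 of 58 stromal cells (82.8%, exact 95% interval 70.6 to 91.4) and in 23 of 27 other cells (85.2%, interval 66.3 to 95.8), so the shares overlapped. Its reads fell into a low and a high class. Over all cells, 33 held 1 to 9 reads and only 4 held 10 to 99, whereas 22 held at least 100 but fewer than 1000 and 12 held 1000 or more. No cell lay between 28 and 122 reads. The low class took 17 of 58 stromal cells and 16 of 27 other cells. At 100 reads or more the order of the groups turned, with 27 stromal cells (46.6%, interval 33.3 to 60.1) and 7 other cells (25.9%, interval 11.1 to 46.3), and these intervals overlapped too.

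*Cebpd*, which encodes the other early factor C/EBPδ, had no such low class. It ranged from 0 to 4701 reads in stromal cells with a median of 709, and from 0 to 4990 in other cells with a median of 0. The 2 ranges were thus nearly the same, and the groups differed in how many cells held the gene. *Cebpd* was above 0 in 45 stromal cells (77.6%, interval 64.7 to 87.5) and in 11 other cells (40.7%, interval 22.4 to 61.2). Where it was found its level was similar, with a median of 862 reads in positive stromal cells and 819 in positive other cells. Only 3 of the 56 positive cells held fewer than 10 reads.

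*Cebpa*, the gene of the late factor C/EBPα, was nearly absent. It was found in 3 stromal cells, with 39 reads in cell 34, 23 in cell 78 and 9 in cell 46. These 3 cells ranked among the 9 stromal cells with the most genes, and each also held *Cebpb*, *Cebpd*, *Ebf1* and *Ebf2*. Their *Cebpb* lay in the low class, at 3 to 5 reads. *Cebpa* was found in 0 of the 27 other cells, which allows a share of up to 11.1% when 3 cells are taken as the limit of a count of 0, and of 12.8% by the exact 95% interval. Intervals and these limits cover the counting of cells only, and do not bound transcripts that were missed in a cell. No cell held both *Cebpa* and *Pparg*. In the rest of the family, *Cebpg* was above 0 in 15 stromal and 4 other cells, and *Ddit3*, which encodes the inhibitory relative CHOP, in 21 and 6. In all, 57 of 58 stromal cells and 26 of 27 other cells held at least 1 of the 5 family members at any read.

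**Figure D2:**
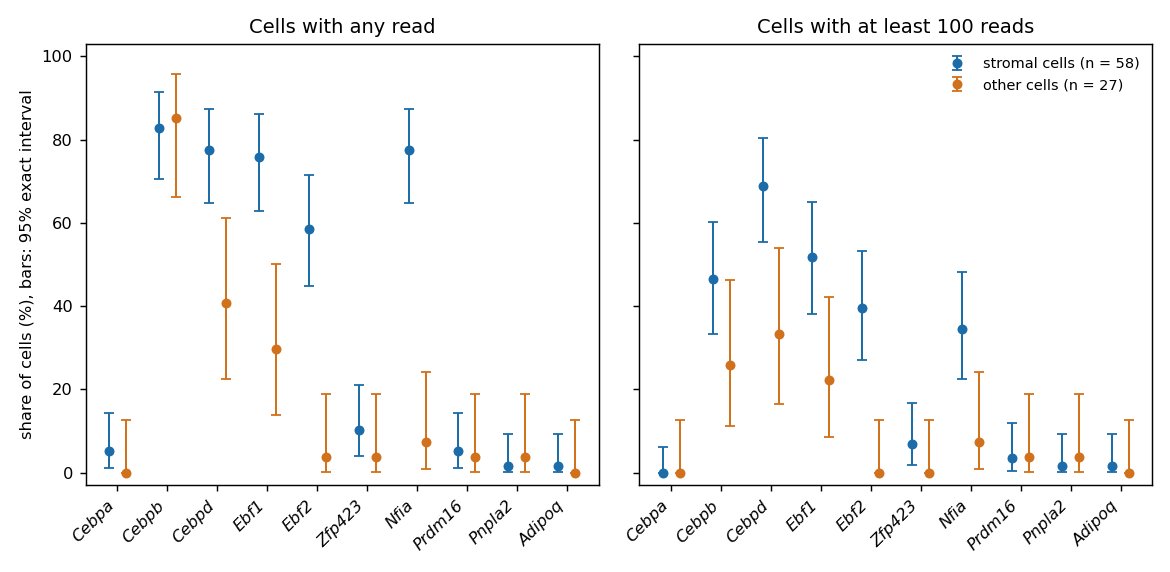
Share of cells with any read (left) and with at least 100 reads (right) of each gene, in percent, for 58 stromal (blue) and 27 other cells (orange), with exact 95% intervals. At any read *Nfia* (77.6% and 7.41%) and *Ebf2* (58.6% and 3.70%) stand farthest apart between the groups, and at 100 reads *Ebf2* (39.7% and 0%) and *Cebpd* (68.97% and 33.3%) do. The intervals of *Cebpb* and of the rare genes overlap in both panels. At 100 reads those of *Ebf1* and *Nfia* overlap too.

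*Ebf1* and *Ebf2* encode early B cell factors, helix-loop-helix proteins that mark and commit fat progenitors. *Ebf1* ranged from 0 to 4893 reads in stromal cells with a median of 195, and from 0 to 7138 in other cells with a median of 0. It was above 0 in 44 stromal cells (75.9%, interval 62.8 to 86.1) and in 8 other cells (29.6%, interval 13.8 to 50.2). *Ebf2* ranged from 0 to 5857 reads in stromal cells with a median of 14.5. Of the 2 genes it was the more restricted, being above 0 in 34 stromal cells (58.6%, interval 44.9 to 71.4) and in 1 other cell (3.70%, interval 0.0937 to 18.97), which held 2 reads. At 10 reads or more *Ebf2* was found in 31 stromal and 0 other cells, compared with 42 and 8 for *Ebf1*. The third measured relative, *Ebf3*, was above 0 in 6 stromal cells and 1 other cell.

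*Ebf2* was found mostly in stromal cells that held *Ebf1*. Both were above 0 in 31 stromal cells, *Ebf1* alone in 13, *Ebf2* alone in 3 and neither in 11. *Ebf1* was thus found in 91.2% of the stromal cells with *Ebf2* (interval 76.3 to 98.1) and in 54.2% of those without it (interval 32.8 to 74.4). At 100 reads or more these shares were 73.9% of 23 cells and 37.1% of 35 cells. The Spearman correlation of the 2 genes over the 58 stromal cells was 0.44, in RPM (reads per 1000000 reads of the cell), the largest among the 10 pairs of widespread members, and it is a description only. Cells with both genes had more genes above 0 (median 2963) than cells with neither (median 2589), and the part of this in the overlap was not tested. Among the 29 stromal cells with the fewest genes, 11 of the 13 cells with *Ebf2* also held *Ebf1*, as did 8 of the 16 cells without *Ebf2*. Among the 29 with the most genes, *Ebf1* was found in 20 of the 21 cells with *Ebf2* and in 5 of the 8 without it.

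**Figure D3:**
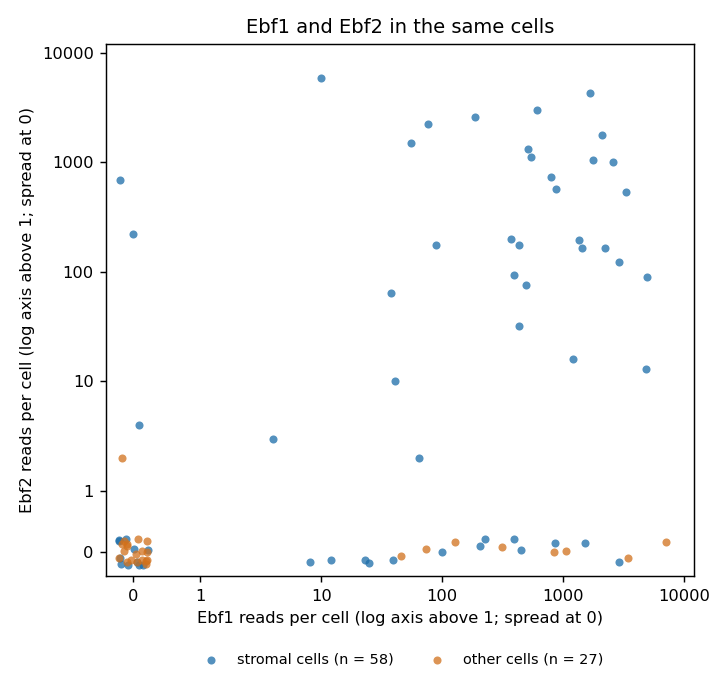
Reads of *Ebf1* (horizontal) and *Ebf2* (vertical) in each cell, both on log axes above 1 read and with points spread slightly at 0, for 58 stromal (blue) and 27 other cells (orange). Other cells with *Ebf1* lie along the horizontal axis at 0 reads of *Ebf2*, whereas 31 stromal cells hold both.

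*Nfia*, the gene of nuclear factor I A, which opens chromatin at fat cell genes, had the widest gap between the groups in the share of cells with any read. It ranged from 0 to 623 reads in stromal cells with a median of 61.5, and in other cells it was at 0 except in cell 58, with 1167 reads, and cell 65, with 613. It was above 0 in 45 stromal cells (77.6%, interval 64.7 to 87.5) and in 2 other cells (7.41%, interval 0.910 to 24.3). This difference of 70.2 percentage points was larger than that of 99.5% of all genes measured in at least 3 cells. At 100 reads or more the gap was smaller, with 20 stromal cells (34.5%, interval 22.5 to 48.1) and 2 other cells (interval 0.910 to 24.3). These intervals overlapped, and the gaps of *Ebf2*, *Cebpd* and *Ebf1* were wider. Its whole family followed the same order. *Nfib* was above 0 in 54 stromal and 13 other cells, *Nfix* in 44 and 2, and *Nfic* in 33 and 1. A stromal cell held a median of 3 of the 4 NFI genes and 23 stromal cells held all of them, compared with a median of 1 and 0 such cells among the other cells. Of the 13 stromal cells without *Nfia*, 11 held another NFI gene, in each case *Nfib* included. Conversely, the 2 other cells with *Nfia* held none of its relatives.

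*Zfp423* and *Prdm16*, which encode zinc finger factors of preadipocyte commitment and of brown fat identity, were rare. *Zfp423* was found in 6 stromal cells, at 12, 91, 278, 387, 579 and 1284 reads, and in 1 other cell at 78 reads. The shares were 10.3% (interval 3.89 to 21.2) and 3.70% (interval 0.0937 to 18.97). Of these 6 stromal cells 5 held *Ebf2*. Its relatives were equally sparse, with *Zfp521* in 9 stromal and 2 other cells and *Zfp467* in 2 and 2. *Prdm16* was found at 4, 329 and 920 reads in 3 stromal cells and at 1002 reads in other cell 14, which held 7 endothelial markers at 100 reads and 0 stromal ones. At this depth its shares, 5.17% (interval 1.08 to 14.4) and 3.70% (interval 0.0937 to 18.97), could not be told apart. *Mecom*, a relative of *Prdm16* that is known from endothelium and blood stem cells, ran the other way, with 4 stromal and 10 other cells.

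*Pnpla2* was found in 1 cell of each group, with 986 reads in stromal cell 39 and 2597 in other cell 45. *Adipoq* was found in cell 46 alone, with 5198 reads. It was found in 0 of 27 other cells, which allows a share of up to 11.1% by the limit of 3 cells and 12.8% by the exact interval. Cell 46 had 41197 reads of *Dcn*, 8 stromal markers and no endothelial marker at 100 reads, and 4028 genes above 0, the second highest number of all cells. It also held 9 reads of *Cebpa*, 4701 of *Cebpd*, the highest *Cebpd* of any stromal cell, and 0 of *Pparg*. In addition it held 4554 reads of *Fabp4*, 1516 of *Scd1*, 1182 of *Plin2* and 837 of *Fasn*, genes of fatty acid transport, synthesis and storage, and 11405 of *Car3*, a carbonic anhydrase abundant in adipocytes. Other genes of lipid handling were low or at 0 in it, with 4 reads of *Cd36* and 0 of *Pnpla2*, *Lipe* and *Acsl1*. *Fabp4*, *Scd1*, *Plin2* and *Fasn* were not particular to this cell. At 100 reads or more *Scd1* was found in 17 stromal cells, *Plin2* in 10, *Fabp4* in 6 and *Fasn* in 5. The median of *Fabp4* was 6.5 reads in stromal cells and 55884 in other cells. The genes named here beside the members were looked up in this cell after its values had been seen. Of the 9 adipocyte markers listed, only *Adipoq* and *Lipe* had a row, and *Lipe* was found in 2 stromal and 3 other cells. The remaining markers could not be assessed. Thus *Adipoq* and *Pnpla2* were each found in 1 stromal cell and *Lipe* in 2, and no more is shown here about adipocytes among the stromal cells.

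The widespread members occurred in many combinations. All 5 were above 0 in 16 stromal cells, 4 of them in 20, 3 in 12 and 2 in 10, and no stromal cell held fewer than 2. At 100 reads or more, 2 stromal cells held all 5, the most common number was 3 (22 cells), and 2 cells held 0. Among other cells the highest number was 3 of 5, in 4 cells, and 3 cells held 0. Besides *Ebf1* with *Ebf2*, the Spearman correlations of pairs over the 58 stromal cells lay between -0.18 (*Cebpb* with *Ebf2*) and 0.19 (*Cebpb* with *Cebpd*). Of the 10 stromal cells without *Cebpb*, 8 held *Cebpd*, and of the 13 without *Cebpd*, 11 held *Cebpb*. At any read only 2 stromal cells lacked both early C/EBP genes, but 8 lacked both at 10 reads or more and 11 at 100 reads or more.

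**Figure D4:**
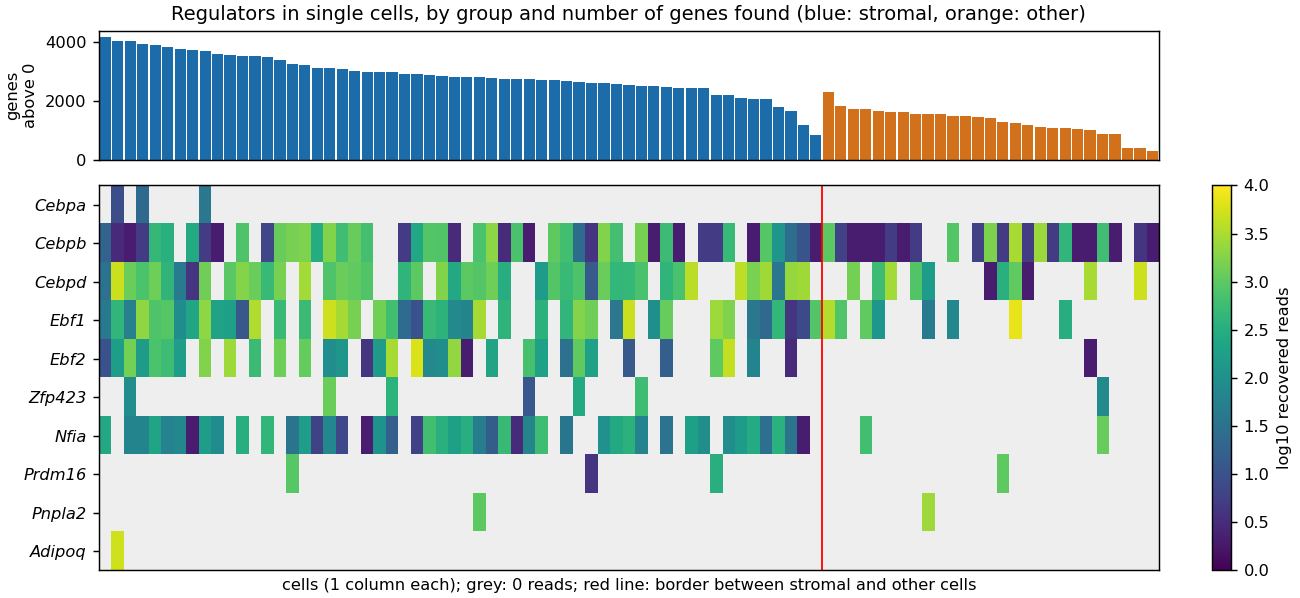
Map of recovered reads (log10 colour scale, grey at 0) of the 10 genes in 58 stromal cells (left of the red line) and 27 other cells (right), with each group ordered by the number of genes above 0, which the bars on top give. The stromal cells held 2 to 6 of the genes in changing combinations, and the 3 cells with *Cebpa* lie among those with the most genes.

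The number of genes found in a cell differed little with 3 of the 5 widespread members and more with *Ebf1* and *Ebf2*. Stromal cells with *Cebpb* had a median of 2801 genes and those without it 2888. For *Cebpd* these medians were 2814 and 2724, and for *Nfia* 2814 and 2697. For *Ebf1* they were 2894 and 2708.5, and it was above 0 in 19 of the 29 stromal cells with the fewest genes and in 25 of the 29 with the most. *Ebf2* differed most, with 2934 against 2643 genes, and was above 0 in 13 of the 29 stromal cells with the fewest genes but in 21 of the 29 with the most. When every cell was thinned to 1146951 reads, the share of stromal cells was 74.1% for *Cebpb*, 56.9% for *Ebf2* and 75.9% for *Nfia*, so at most 5 cells were lost for a gene.

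Among the other cells, members occurred mostly in cells with endothelial markers, as most other cells were of this kind. All 8 other cells with *Ebf1* and both with *Nfia* held 3 or more endothelial markers at 100 reads. So did 24 of all 27 other cells, and these counts therefore do not set the members apart. The highest *Ebf1* of all cells, 7138 reads, was in cell 62, which also held the highest *Cebpb*, 2983 reads, and 1041 reads of *Cebpd*. Cell 58, with the highest *Nfia*, held 593 reads of *Cebpb*, 78 of *Zfp423*, 3869 of the endothelial adhesion gene *Pecam1* and 0 stromal markers at 100 reads. The highest *Cebpd* of the other cells, 4990 reads, was in cell 13, which had 377 genes above 0 and 1 endothelial marker at 100 reads. *Pparg*, the partner of these genes in adipocytes, was above 0 in 11 other and 2 stromal cells. Of the 11 other cells with *Pparg*, 6 held *Ebf1*, 8 held *Cebpb*, 5 held *Cebpd* and 0 held *Ebf2*, *Cebpa* or *Adipoq*. Of the 16 other cells without *Pparg*, 2 held *Ebf1*, 15 held *Cebpb* and 6 held *Cebpd*. These counts are at any read. At 100 reads or more, *Pparg* was found in 8 other cells, of which 3 held *Ebf1*, 4 *Cebpb* and 2 *Cebpd* at that level. Of the 19 other cells below that level of *Pparg*, 3 held *Ebf1*, 3 *Cebpb* and 7 *Cebpd*. The order of the shares thus turned for *Cebpb* and *Cebpd*, and the difference for *Ebf1* was smaller.

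Mean levels were compared as log2(value + 1) of the deposited values, given as mean±SD over cells. *Ebf2* was 4.58±4.49 in stromal and 0.06±0.30 in other cells, a difference of 4.52. *Nfia* was 4.78±3.24 and 0.69±2.498, a difference of 4.09. The difference was 3.72 for *Cebpd* (7.23±4.32 against 3.51±4.90) and 3.67 for *Ebf1* (6.35±4.39 against 2.67±4.41). Within each group many cells were at 0 and others held 100 reads or more, and the SDs in stromal cells were about as large as the differences. Taking a difference of at least 1 as a call, these 4 of the 8 members found in at least 3 cells were called higher in stromal cells. Of all genes, 35.6% were. The called members were found in 35 to 56 cells, and the share of all genes called was larger among genes found in at least 10 cells. Conversely, 0 of the 8 were called higher in other cells, as were 2.84% of all genes. The median difference was 2.31 over the 8 members and 0.64 over all genes, so most genes were somewhat higher in stromal cells.

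*Cebpb* lay just under the limit, with 5.73±4.51 against 4.79±3.84 and a difference of 0.94. Its deposited values depend much on the scaling, since the factor that separated value from reads ranged from 0.0409 to 75.5 between cells. In cell 21, 884 reads stood as a value of 32582, and in cell 50, 2 reads stood as 151. As log2(RPM + 1) the difference was 1.29, and 5 of 8 members were called higher in stromal cells, compared with 29% of all genes. On this scale 0 of 8 were called higher in other cells, compared with 2.51% of all genes. Among deposited values *Cebpb* was also called without cell 34, which held both kinds of marker (difference 1.01), and with a *Dcn* limit of 100 (difference 1.24). *Zfp423*, *Cebpa* and *Prdm16* differed by 0.57, 0.23 and -0.02.

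**Figure D5:**
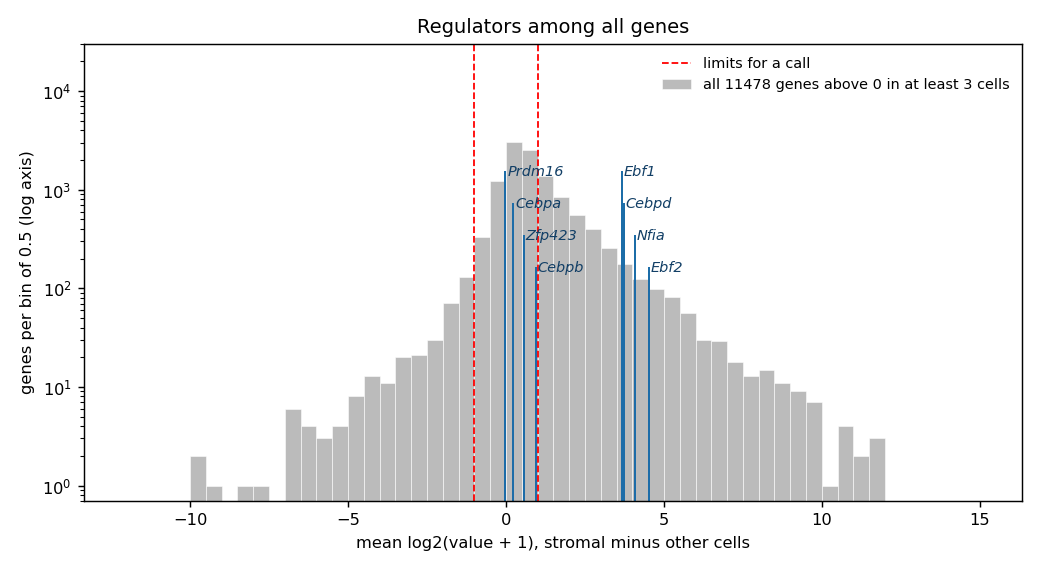
Number of genes (log axis) by the difference in mean log2(value + 1), stromal minus other cells, for all 11478 genes above 0 in at least 3 cells, with the 8 members among them as blue lines and the limits for a call in red. *Cebpd*, *Ebf1*, *Nfia* and *Ebf2* lie between 3.67 and 4.52, and the other 4 lie between both limits.

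Levels can be compared between genes only per length of transcript. In stromal cells the mean was 97.2 RPM per kilobase of exon for *Cebpb* and 91.1 for *Cebpd*. The EBF genes followed with 29.1 for *Ebf2* and 25.7 for *Ebf1*, and *Nfia* was lower with 4.24. *Adipoq* reached a mean of 22.9 through cell 46 alone. Among positive stromal cells the medians were 74.1 for *Cebpb*, 73.7 for *Cebpd*, 17.96 for *Ebf1*, 10.1 for *Ebf2* and 2.40 for *Nfia*, so the early C/EBP genes stood above the EBF genes and these above *Nfia* by both measures.

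Other genes of the adipogenic network were counted by lists. Of 19 further activators of adipogenesis, *Pparg* included, 8 were called higher in stromal cells and 1, *Pparg*, in other cells, where 35.6% and 2.84% of all genes were. The Krüppel-like factor genes *Klf4* (52 stromal and 13 other cells) and *Klf9* (39 and 5) had the largest differences in share together with *Xbp1* (34 and 6) and *Fos* (47 and 15). Of 30 genes listed as inhibitors, 16 were called higher in stromal cells and 1 in other cells. The largest differences in share were those of *Foxo1* (42 and 6), *Zeb1* (35 and 3), the Wnt ligand gene *Wnt5a* (26 and 1) and the corepressor gene *Ncor1* (37 and 7). *Gata2* was found in 0 stromal and 4 other cells. The list was set by name, and whether a listed gene such as *Zeb1* acts as an inhibitor in these cells was not tested. Genes of both lists were thus found in stromal cells. The median difference was 0.63 for the activator list and 1.04 for the inhibitor list, compared with 0.64 over all genes.

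The C/EBP list had 3 of 5 genes called higher in stromal cells, the EBF list 2 of 3, the NFI list 4 of 4, the ZFP423 list 0 of 3 and the PRDM list 0 of 6, with *Mecom* called higher in other cells. Of 34 preadipocyte genes, 27 were called higher in stromal cells and 0 in other cells, led by *Igf1* (48 stromal and 3 other cells), the PDGF receptor gene *Pdgfra* (49 and 5), *Pi16* (45 and 7) and *Col15a1* (30 and 1). The median of this list was 2.32. Of 29 genes listed for brown and beige fat, only 9 had a row, *Ucp1* not among them, and 5 were found in at least 3 cells. Of these 5, 3 were called, *Slc29a1* (25 and 0), *Nrip1* (27 and 3) and *Bmp7* (9 and 1). This list was set by name, and the part of each gene, such as *Nrip1*, in brown fat was not tested. The calls thus say little about brown character. *Cox8b* was found in 2 stromal and 4 other cells. As RPM the counts called higher in stromal cells were lower for several lists. They were 2 of the 5 C/EBP genes, 2 of the 5 listed brown genes, 13 listed inhibitors, 7 lipid storage genes and 24 preadipocyte genes. The share of all genes called fell as well, from 35.6% to 29%.

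Genes of lipid storage divided between the groups. Of 22, 11 were called higher in stromal cells and 5 in other cells, and as RPM 7 and 5. Of all genes, 35.6% and 29% were called higher in stromal cells on the 2 scales, and 2.84% and 2.51% in other cells. *Scd2* (30 and 1), *Acly* (29 and 4) and *Plin3* (19 and 0), of fatty acid synthesis and the droplet coat, and the lipoprotein lipase gene *Lpl* (53 and 15) were on the stromal side. The fatty acid transporter gene *Cd36* (18 and 26) and the caveolin gene *Cav1* (22 and 22) were called higher in other cells. Their differences were -9.14 and -6.74 (stromal minus other). *Fabp4* differed more in mean level, by -9.90, although it was above 0 in 55 stromal and 27 other cells. Of 11 adipokines and receptors, 7 were called higher in stromal cells. *Rarres2*, which encodes chemerin, was found in 55 stromal and 9 other cells and *Calr* in 51 and 8. The adipokine list was set by name, and whether *Calr* acts as an adipokine or receptor in these cells was not tested. *Cdh13*, the gene of the adiponectin receptor T-cadherin, was called higher in other cells (9 and 10). *Adipor1* was found in 18 and 9.

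Stromal cells were also divided by *Pi16* and *Dpp4*, genes of early progenitors, and *Icam1*, a gene of committed preadipocytes, at 10 reads or more. *Ebf2* was found in 24 of 40 cells with *Pi16* or *Dpp4* alone (interval 43.3 to 75.1%) and in 1 of 6 with *Icam1* alone (interval 0.421 to 64.1%), *Ebf1* in 30 and 4, *Cebpd* in 31 and 6, *Nfia* in 29 and 3, and *Cebpb* in 21 and 4. With 6 cells in the *Icam1* class no difference was detectable for any of them. *Zfp423* was found in 5 of the 40 and 0 of the 6.

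The genes most alike each widespread member were ranked by Spearman correlation of RPM over the 58 stromal cells among 2706 genes above 0 in at least 20 of them. For *Nfia* these were *Topors* (0.63), *Galnt15* (0.45) and *Zbtb20* (0.45). For *Ebf2* they were *Uqcc2* (0.51), *Adgrd1* (0.50) and *Tmem248* (0.49), and for *Ebf1* they were *Gpx7* (0.47), *Lman2* (0.46) and *Nckap1* (0.44). *Cebpd* was most like *Gm6807* (0.47), the chemokine gene *Cxcl1* (0.47) and *Gm6136* (0.44), and *Cebpb* like *Akap9* (0.44), *Grn* (0.43) and *Ifnar2* (0.42). These are the highest of many values and are given as descriptions. With the number of genes per cell *Ebf2* itself correlated at 0.33 and *Ebf1* at 0.16, and the others between -0.01 and 0.02. The part of this in the rankings was not tested. *Topors* was above 0 in 26 stromal cells, of which 25 held *Nfia*.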

How the data were processed

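The authors aligned reads to mm9 (HISAT2 2.0.5, SAMtools 1.4 and StringTie 1.3.3 per the submitters' processing notes), controlled quality with scater and deposited 1 table of normalized read counts, a signal that is not raw counts. The counting program is not given in the sources used here. Genes above 0 in fewer than 10 cells (9942) held whole numbers. A further 5404 genes fell into 13 groups, each multiplied by its own factor in each cell (0.0157 to 94.5), and 723 had no factor. Dividing by these factors, a step devised with the values in view, gave whole reads for 99.97% of 144272 values within a relative tolerance of 1e-08, and 42 values were rounded. A factor rested on fewer than 10 values in 20 of 1105 cases. The recovery was tested on simulated data.

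Shares are of cells with recovered reads above 0, with exact Clopper-Pearson 95% intervals that cover counting error only. Levels are log2(value + 1) of the deposited values. A difference in means of at least 1 was a call, set beside all genes above 0 in at least 3 cells. Exon lengths came from GENCODE vM21, whose build differs from mm9, and coordinates were therefore left out. The genes named are all members, up to 4 genes with the largest and up to 2 with the smallest difference in share of each list, and the 3 most alike genes of each member found in at least 10 stromal cells. Members and lists were chosen with earlier results of these data known. Alternatives were other groupings, read limits, thinning, pseudocounts and filters. Doublets were not called. Python 3.11.15, numpy 2.4.6, pandas 2.3.3, scipy 1.17.1 and matplotlib 3.10.9 were used.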

Additional observations from a re-analysis of the deposited data

How the results depend on the processing

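Of 47 recomputed counts and medians over the members, 45 stayed within 1.5 times or 1 SD of the value reported. The median number of members per other cell, 2, became 1 at 10 reads or more and 1 at 100 reads or more. *Cebpd*, *Ebf1*, *Ebf2* and *Nfia* were called higher in stromal cells under all 11 alternatives for the difference, with lowest differences of 2.41, 2.24, 2.77 and 2.06, and no called difference changed sign. *Cebpb* passed the limit of 1 under 3 of 11 (0.56 to 1.29). Of 220 recomputed shares, 12 left their interval, 11 of them at a limit of 10 or 100 reads, among which were *Cebpb* in stromal cells (53.4% at 10 reads), *Ebf1* (51.7% at 100 reads) and *Nfia* (34.5% at 100 reads). The share of all genes called was 35.6% and ranged from 16.4% (difference of at least 2) to 60.3% (genes above 0 in at least 10 cells). *Cebpb*, *Cebpd*, *Ebf1*, *Ebf2* and *Nfia* were the members that passed the filter of 10 cells, and all but *Cebpb* were called. A limit of *Dcn* above 0 left no other cell and gave no value. The alternative without cell 50 was added after seeing the data and changed no count. No paired analysis was possible because the cells share a single condition and no test was run. The number of cells limits the rare members, since a gene found in 0 of 27 cells may be found in up to 11.1% (limit of 3 cells) or 12.8% (exact interval) of such cells.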
